A study of Mus musculus with 6 samples.

Results

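The genes described here are 10 markers of macrophages in fat, among them the genes used to tell resident macrophages of adipose tissue from lipid-associated macrophages. They were found by their symbols in the deposited count and FPKM tables, and each of the 10 names matched 1 entry of the 55039 genes listed. Adgre1 and Cd68 mark macrophages of nearly every kind, Mrc1, Lyve1 and Timd4 are used for resident macrophages, and Itgax, Trem2, Gpnmb, Spp1 and Slamf9 were grouped as genes of lipid-associated or infiltrating macrophages. All 10 passed edgeR's filter on low counts, which left 17296 genes for testing.

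The tissue was epididymal white adipose tissue (eWAT), the visceral fat beside the epididymis, of male C57BL/6 mice aged 6 to 7 weeks when they entered the study. The CAC group, for cancer-associated cachexia, carried a subcutaneous tumor grown from injected Lewis lung carcinoma (LLC) cells, a transplantable mouse lung cancer line. The CONT group was injected with phosphate-buffered saline only, and both were taken 28 days after injection, with 3 mice and 3 libraries of polyadenylated RNA per group. No altered allele is given for either group, and the tumor cells were injected into the lower back, away from the tissue measured. The libraries come from whole fat pieces, so that fewer macrophages and less RNA of a gene per macrophage cannot be told apart.

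Macrophages of fat clear dying adipocytes and take up the lipid and debris they release. In lean fat most of them are resident cells near vessels that carry scavenger and mannose receptors, while in obesity lipid-associated macrophages gather around dying adipocytes, where the lipid receptor TREM2 drives a program of lipid uptake and lysosomal breakdown. Cachexia differs from obesity in that adipocytes shrink as their triglyceride is broken down and exported.

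Only 2 of the 10 genes separated the groups by a wide margin, and in opposite directions. Slamf9, a small receptor of the SLAM family found on macrophages and dendritic cells, was 4.41-fold lower in CAC, and Gpnmb, a transmembrane glycoprotein of lysosomes and melanosomes that is abundant in lipid-laden macrophages, was 3.45-fold higher. None of the 10 passed an adjusted p under 0.05 in edgeR's quasi-likelihood test, nor did any gene of the series (0% of those tested). At an unadjusted p under 0.05, 1 of the 10 was lower (Slamf9), where 6.95% of all genes tested were, and 1 was higher (Gpnmb), where 6.31% were. DESeq2, the tool of the study, called the same 2 genes at an adjusted p under 0.05, 1 lower against 2.4% of all genes and 1 higher against 3.22%. The median log2 fold change of the 10 was -0.38, with 4 higher and 6 lower, against -0.06 over all genes tested, and without the control library CONT 1 it was -0.70 against -0.03, again with 4 higher and 6 lower.

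The control library CONT 1 stood apart from the other 5 and bears on most of these genes. Reads of mitochondrial genes made up 30.2% of its counts against 3.89% to 5.04% elsewhere, and its total of 15713794 was the lowest, with totals reaching 25926425. It held 1852 reads of the 10 markers against 6308 to 10602 in each other library. These reads are not scaled for library size, and part of the gap is the lower depth of CONT 1. Values without this library are given beside many of the markers and lists below. Leaving the mitochondrial genes out of the library size gave the same counts of markers past each edgeR threshold and without overlap. Levels below are CPM, the read count of a gene scaled by the TMM-adjusted library size, in which 1 CPM stood for 11.2 to 26.5 reads, and a fold change is the edgeR estimate of CAC over CONT with its standard error (SE). With 3 libraries against 3, an exact two-sided permutation test of any gene cannot give a p below 0.1. CONT 3 differed as well, with epididymis genes at a sum of 6994 CPM, against 260 CPM in CONT 1 and 2.63 CPM in CONT 2. Values without CONT 1 rest on CONT 2 and CONT 3 alone as controls.

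**Figure D1:**
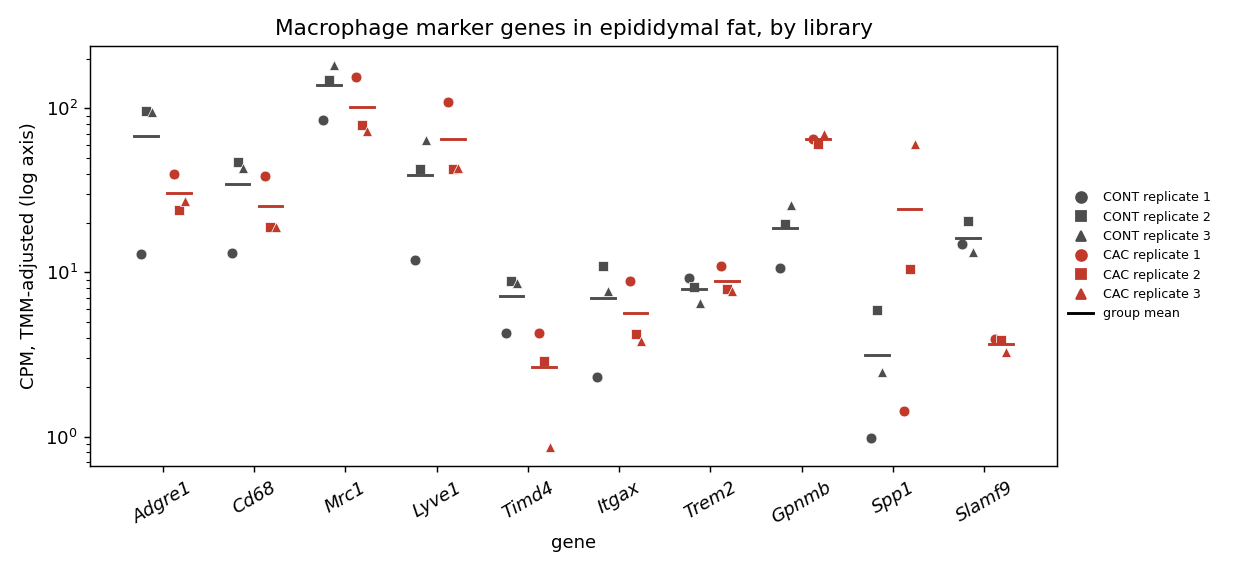
CPM (TMM-adjusted, log axis) of the 10 macrophage markers, with a point per library, circle, square and triangle for replicates 1 to 3, CONT in grey, CAC in red, and a line at each group mean. All 3 CAC libraries lie above the controls for Gpnmb (60.2 to 69.6 against 10.7 to 25.8 CPM) and below them for Slamf9 (3.28 to 3.90 against 13.2 to 20.6 CPM), while CONT replicate 1 sits far under the other controls for Adgre1, Cd68, Lyve1 and Itgax.

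The sequences just before the start sites of Slamf9, Gpnmb and Spp1 are shown because these 3 genes carry the largest differences. Each is the 250 bases before the RefSeq start (GRCm38.p6), on the plus strand, 5′ to 3′: chr1:172475110-172475359 for Slamf9, chr6:49036268-49036517 for Gpnmb and chr5:104434861-104435110 for the upstream start of Spp1. Capitals mark matches to GAGGAAGT, a core bound by the macrophage factor PU.1, and CACGTG, the E-box bound by TFEB, TFE3, MITF and other factors. The motif TGACTCA of AP-1 was searched as well, each motif on both strands, and none of the 3 motifs overlaps another in these windows.
Slamf9: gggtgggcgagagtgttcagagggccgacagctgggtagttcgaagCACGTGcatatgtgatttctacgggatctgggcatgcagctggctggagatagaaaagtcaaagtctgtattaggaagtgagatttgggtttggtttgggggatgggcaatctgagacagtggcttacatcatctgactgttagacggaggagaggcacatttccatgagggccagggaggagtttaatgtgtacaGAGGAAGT
Gpnmb: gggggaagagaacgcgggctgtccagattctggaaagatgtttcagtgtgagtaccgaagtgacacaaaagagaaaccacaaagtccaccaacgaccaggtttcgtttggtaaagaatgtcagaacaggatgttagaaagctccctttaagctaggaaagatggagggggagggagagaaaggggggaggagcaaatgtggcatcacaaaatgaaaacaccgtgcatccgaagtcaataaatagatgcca
Spp1: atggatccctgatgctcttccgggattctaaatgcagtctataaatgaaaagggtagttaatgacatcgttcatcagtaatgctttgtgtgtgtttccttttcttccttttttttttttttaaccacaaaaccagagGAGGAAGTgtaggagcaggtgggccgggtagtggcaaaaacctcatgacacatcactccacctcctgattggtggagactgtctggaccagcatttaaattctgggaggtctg
In Slamf9 the PU.1 core filled the 8 bases next to the start and the E-box lay 204 to 199 bases before it. In Spp1 the PU.1 core lay 113 to 106 bases before the start, and the Gpnmb window held no match to any of the 3 motifs. Windows were found for 8 of the 10 genes, 9 in all since Spp1 has a second start, and Adgre1 and Lyve1 were not among them. GAGGAAGT was in 2 of the 9 and in 2.44% of all 32851 windows, CACGTG in 1 of the 9 and in 6.02%, and TGACTCA in 2 of the 9 (Cd68, with 2 matches, and Itgax) and in 4.46%. These matches describe letters and say nothing of binding in these mice.

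Adgre1 encodes F4/80, the surface adhesion receptor by which mouse macrophages are usually sorted (chr17:57358691-57483527, plus strand). Its level was 13, 96.5 and 94.9 CPM in CONT 1, 2 and 3 and 39.5, 24.0 and 27.2 CPM in CAC 1, 2 and 3. CONT 1 lay below every CAC library and the other controls well above, so that the groups overlapped. The log2 fold change was -1.17 (SE 0.68, edgeR adjusted p = 0.486). Without CONT 1 the log2 fold change was -1.65 (SE 0.24, edgeR adjusted p = 0.200), every CAC library lay below both remaining controls, and DESeq2 gave an adjusted p of 2.43e-06, against 0.386 with all 6 libraries. Leaving out any other library gave DESeq2 adjusted p values of 0.394 to 0.716, so that the low value depends on leaving out CONT 1. Over the alternatives that change 1 choice, other tools included, the adjusted p of Adgre1 lay between 0.0505 (voom with sample quality weights) and 0.836.

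Cd68 encodes macrosialin, a glycoprotein of the late endosomes and lysosomes of phagocytes (chr11:69664213-69666153, minus strand). It had 13.2, 47.3 and 42.9 CPM in the controls and 38.8, 18.8 and 18.8 CPM in CAC. As for Adgre1, the lowest value was that of CONT 1, with 148 reads, and the highest CAC value was that of CAC 1. The groups overlapped, at a log2 fold change of -0.44 (SE 0.53, edgeR adjusted p = 0.745), and without CONT 1 all CAC libraries lay below the controls at a log2 fold change of -0.81 (edgeR adjusted p = 0.392).

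Mrc1, the mannose receptor CD206 that takes up glycoproteins and collagen fragments, lies at chr2:14229392-14332057 on the plus strand. Its values were 84.6, 148 and 183 CPM in CONT and 154, 79.5 and 72.3 CPM in CAC. CAC 1 lay among the controls and CONT 1 near the other CAC libraries, and the log2 fold change was -0.44 (SE 0.40, edgeR adjusted p = 0.653). It ranged from -0.81 without CAC 1 to -0.17 without CONT 3 and was -0.69 without CONT 1. The microRNA gene Mir511 lies inside Mrc1 on the same strand and had 0 reads in every library.

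Lyve1, a hyaluronan receptor found on resident macrophages near vessels and on lymphatic endothelium (chr7:110850607-110863239, minus strand), gave 11.9, 42.8 and 63.6 CPM in the controls and 109, 42.8 and 43.0 CPM in CAC. CAC 1 was the highest library, CAC 2 and CAC 3 were level with CONT 2, and the groups overlapped at a log2 fold change of 0.72 (SE 0.65, edgeR adjusted p = 0.651). It was 0.30 without CONT 1, 0.19 without CAC 1 and 1.26 without CONT 3. Of the 5 lymphatic endothelium genes tested, 4 were higher and 1 lower, with 3 higher and 1 lower at an unadjusted p under 0.05 (1 higher and 1 lower without CONT 1), and their summed level was 64.6 to 96.5 CPM in CONT and 79.1 to 138 CPM in CAC. Prox1, the transcription factor that defines lymphatic endothelium, was at 1.34 to 3.90 CPM in CONT and 1.44 to 5.85 CPM in CAC. The part of lymphatic vessels in the Lyve1 values was not tested.

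Timd4, a phosphatidylserine receptor by which resident macrophages bind apoptotic cells (chr11:46810800-46844332, plus strand), was the scarcest of the 3 resident markers. It had 4.28, 8.80 and 8.59 CPM in CONT and 4.27, 2.87 and 0.868 CPM in CAC, the last from 23 reads. The CAC libraries lay below the controls by the margin between CAC 1 and CONT 1 only, and the order of that pair turned over in FPKM, at 1.62 against 1.6. The log2 fold change was -1.44 (SE 0.64, edgeR adjusted p = 0.395, unadjusted p = 0.0615).

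Among all 10 genes, 2 (Slamf9 and Timd4) had every CAC library below every control, as did 10.7% of all genes tested, and 1 (Gpnmb) had every CAC library above, as did 11.8%. Without CONT 1, Adgre1 and Cd68 joined those below, 4 of 10 against 19.6% of all genes, and Gpnmb alone remained above, 1 of 10 against 18.1%. At an unadjusted edgeR p under 0.05 and without CONT 1, 2 of the 10 were lower (Adgre1 and Slamf9) against 8.28% of all genes, and 1 was higher (Gpnmb) against 7.3%. DESeq2 without CONT 1 called Adgre1 and Slamf9 lower, 2 of 10 against 5.18% of all genes, and Gpnmb higher, 1 of 10 against 5.84%.

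Itgax, the integrin alpha chain CD11c of dendritic cells and of macrophages recruited to obese fat (chr7:128129547-128150657, plus strand), was low in every library. It had 2.32, 10.9 and 7.68 CPM in CONT and 8.87, 4.20 and 3.81 CPM in CAC. The CAC values lay within the control range, and the log2 fold change was -0.31 (SE 0.63, edgeR adjusted p = 0.863), turning to 0.16 without CONT 2 and reaching -0.70 without CONT 1. Of the 8 dendritic cell genes, all 8 had fitted log2 fold changes below 0 (1 of 8 above 0 without CONT 1), 2 of them at an unadjusted p under 0.05 (Xcr1 and Siglech, 1 lower without CONT 1), with summed levels of 133 to 312 CPM in CONT and 107 to 139 CPM in CAC. Most of each sum was Fscn1, named after its values were seen. It was at 253, 93.8 and 89.0 CPM in CONT and 69.3, 73.9 and 107 CPM in CAC. Flt3, the growth factor receptor of dendritic cells, had a fitted value close to 0 (means of 2.37 CPM in CONT and 2.39 CPM in CAC), at 0.535 to 3.77 CPM in CONT and 2.26 to 2.64 CPM in CAC. The part of dendritic cells in the Itgax values was not tested.

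Trem2, the lipid receptor that defines lipid-associated macrophages (chr17:48346401-48354147, plus strand), was the steadiest of the 10 in CPM. It stood at 9.18, 8.10 and 6.51 CPM in CONT and 10.9, 7.87 and 7.66 CPM in CAC, from 103 to 266 reads per library. The groups overlapped and the log2 fold change was 0.15 (SE 0.30, edgeR adjusted p = 0.859). CONT 1, so low for Adgre1, Cd68 and Itgax, had the highest Trem2 value of the controls.

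Gpnmb (chr6:49036546-49070929, plus strand) had 10.7, 19.8 and 25.8 CPM in CONT and 64.6, 60.2 and 69.6 CPM in CAC. The means were 18.7 ± 7.58 CPM (SD, n = 3) and 64.8 ± 4.71 CPM (SD, n = 3), and the lowest CAC library was well above the highest control. The log2 fold change was 1.79 (SE 0.33), with an unadjusted p of 0.00114 that ranked 88 among all genes and an edgeR adjusted p of 0.215. DESeq2 gave 1.82 on the log2 scale with an adjusted p of 8.36e-05. The adjusted p over the alternatives that change 1 choice lay between 8.36e-05 and 0.684, and leaving out any 1 library left the log2 fold change between 1.52 and 2.10, the lower value without CONT 1.

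Slamf9 (chr1:172475358-172478575, plus strand) had 15, 20.6 and 13.2 CPM in CONT and 3.90, 3.87 and 3.28 CPM in CAC. The 3 CAC libraries lay within a narrow band far below the lowest control, with means of 16.3 ± 3.86 CPM (SD, n = 3) in CONT and 3.69 ± 0.348 CPM (SD, n = 3) in CAC. The counts behind these values were 168, 471 and 293 reads in CONT and 95, 96 and 87 reads in CAC. The log2 fold change was -2.14 (SE 0.29), with an unadjusted p of 0.000209, rank 24 among all genes, and an edgeR adjusted p of 0.151. DESeq2 gave -2.12 with an adjusted p of 1.78e-09, the adjusted p over the same kind of alternatives lay between 1.78e-09 and 0.684, and leaving out any 1 library gave log2 fold changes of -2.26 to -1.93. Slamf9 is also a gene that the study picked out on these same libraries, so that its difference here is not independent evidence. Unlike most markers, Slamf9 was not low in CONT 1.

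Spp1 encodes osteopontin, a secreted phosphoprotein that binds integrins and CD44 and is made by lipid-associated macrophages among other cells (chr5:104435118-104441050, plus strand). It had 0.981, 5.91 and 2.49 CPM in CONT and 1.44, 10.5 and 60.6 CPM in CAC. CAC 1 lay inside the controls, CAC 2 above them and CAC 3 far above every other library. The log2 fold change was 2.93 (SE 1.31, edgeR adjusted p = 0.398), the largest of the 10 and the least precise, and without CAC 3 it was 0.93. DESeq2 gave an adjusted p of 0.0933, and 0.00779 without CAC 1, where the adjusted p in edgeR over the 6 fits that leave out a library was at its lowest, 0.314. The gene model Gm42793 overlaps Spp1 on the same strand and had 0 reads.

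Neutrophil genes differed between the groups in the same libraries. All 6 listed were higher in CAC, each with every CAC library above every control, 5 at an unadjusted p under 0.05 and 5 called by DESeq2, and their summed level was 5.17 to 57.2 CPM in CONT and 161 to 1073 CPM in CAC. S100a8, a calcium-binding protein that neutrophils carry in large amounts, was at 48.5, 88.4 and 492 CPM in CAC 1, 2 and 3, the order also seen for Spp1, and at 0.803 to 18 CPM in CONT. Ly6g, which defines neutrophils, was at 0 in CONT 1, at most 0.136 CPM in the other controls, and 0.657 to 3.25 CPM in CAC. The part of neutrophils in the Spp1 values was not tested.

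**Figure D2:**
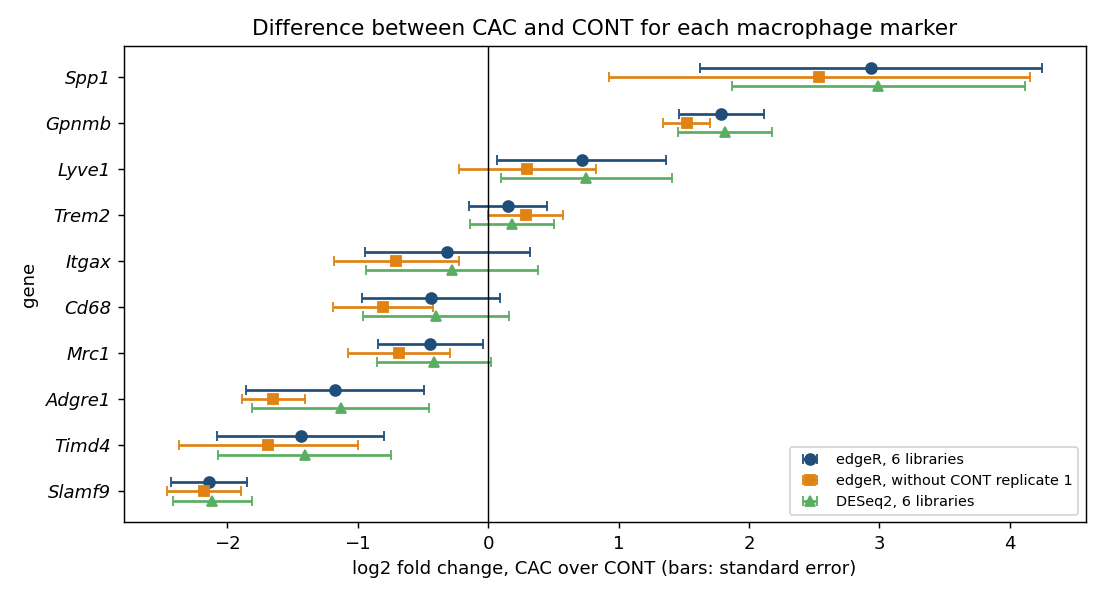
Log2 fold change of CAC over CONT (x axis) for each of the 10 markers (y axis, ordered by the edgeR value), with bars of 1 SE, from edgeR on 6 libraries (circles), edgeR without CONT replicate 1 (squares) and DESeq2 on 6 libraries (triangles). Slamf9 stays near -2 and Gpnmb between 1.52 and 1.82 in all 3 fits, Adgre1 shifts from -1.17 to -1.65 without CONT replicate 1, and the bars of Spp1 are the widest.

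Levels of different genes were compared in FPKM, which divides by gene length. In CONT the order of mean FPKM was Cd68 22, Mrc1 17.5, Adgre1 16.9, Lyve1 10.8, Slamf9 9.97, Timd4 2.67, Gpnmb 2.31, Spp1 1.52, Trem2 1.29 and Itgax 1.16. Only the step from Slamf9 to Timd4 was larger than the SD between mice of either neighbour, so the other neighbours were not told apart. In CAC the order was Lyve1 18.2, Cd68 16.6, Mrc1 13.1, Spp1 11.9, Gpnmb 8.13, Adgre1 7.64, Slamf9 2.29, Trem2 1.46, Timd4 1.00 and Itgax 0.959, and the steps from Adgre1 to Slamf9 and from Slamf9 to Trem2 exceeded the SD. Slamf9 was thus above Gpnmb in control fat, at 9.97 ± 2.30 against 2.31 ± 0.926 FPKM (SD, n = 3), and below it in CAC, at 2.29 ± 0.223 against 8.13 ± 0.604 FPKM (SD, n = 3).

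Dividing each gene by Cd68 within its library set the markers against a general macrophage gene. Gpnmb was 0.156, 0.0806 and 0.116 times Cd68 in CONT and 0.321, 0.619 and 0.715 times in CAC, and Lyve1 was 0.387, 0.389 and 0.638 times in CONT and 1.21, 0.982 and 0.985 times in CAC. For both genes all CAC libraries were above all controls, 2 of the 9 other markers against 5.19% of all genes. Slamf9 was 1.09, 0.418 and 0.295 times Cd68 in CONT and 0.0962, 0.198 and 0.167 times in CAC, and Timd4 was 0.188, 0.108 and 0.116 times in CONT and 0.0637, 0.0883 and 0.0267 times in CAC. These 2 of 9 lay below without overlap, against 2.05% of all genes.

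Mrc1, in contrast, was 0.784, 0.836 and 0.759 times Cd68 in CAC, inside the control range of 0.617 to 1.27. Itgax was 0.0460 to 0.0603 times Cd68 in CONT and 0.0531 to 0.0598 times in CAC, a range within that of the controls. Trem2 was 0.177, 0.0435 and 0.0385 times Cd68 in CONT and 0.0715, 0.107 and 0.104 times in CAC. Its groups overlapped through CONT 1 only, as they did relative to Adgre1 (0.462, 0.0550 and 0.0449 times in CONT, 0.181, 0.215 and 0.184 times in CAC). Relative to Adgre1, Gpnmb (0.409, 0.102 and 0.135 times in CONT, 0.812, 1.25 and 1.27 times in CAC) and Lyve1 (1.01, 0.491 and 0.743 times in CONT, 3.05, 1.98 and 1.75 times in CAC) again lay above without overlap, 2 of 9 against 5.94% of all genes. No marker lay below without overlap relative to Adgre1, 0 of 9 against 0.636% of all genes, since the Slamf9 ratio of 0.344 in CONT 3 was under the 0.398 of CAC 2. These ratios rest on Cd68 and Adgre1 themselves, both of which were low in CONT 1. The shares of all genes are not a like measure for the ratios to Adgre1 either.

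**Figure D3:**
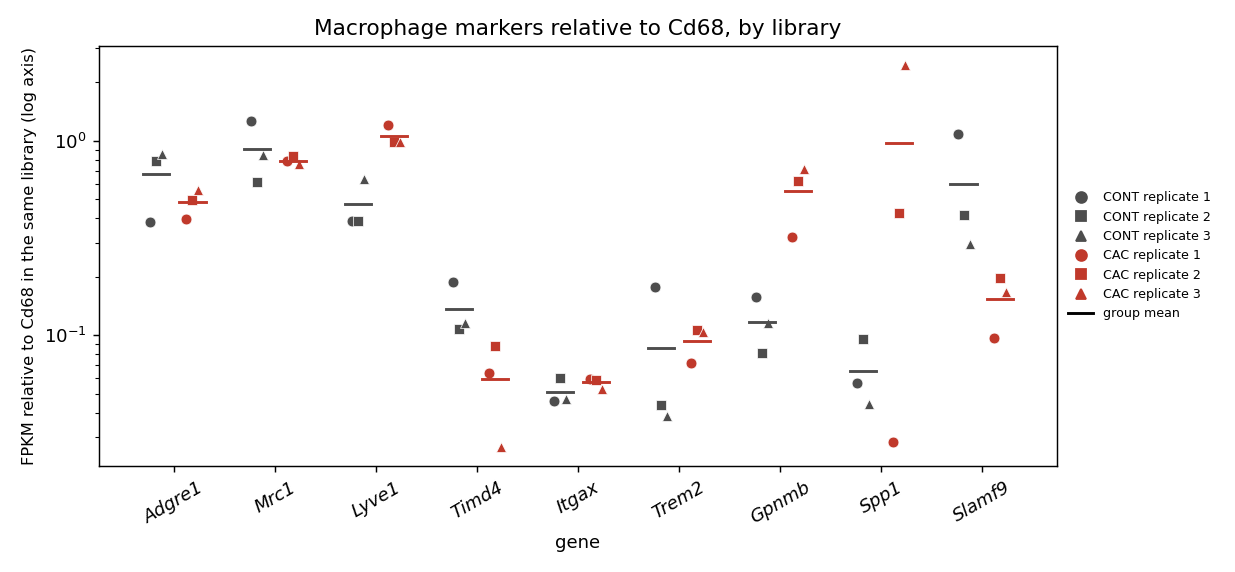
FPKM of 9 markers divided by the FPKM of Cd68 in the same library (log axis), with a point per library, CONT in grey, CAC in red, and a line at each group mean. Gpnmb and Lyve1 lie higher in all CAC libraries, Slamf9 and Timd4 lower, the Itgax ratio varies little (0.0460 to 0.0603 over the 6 libraries), and the Slamf9 ratio of CONT replicate 1 is 1.09.

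Other genes of the same cells and pathways were taken as fixed lists, and none passed an adjusted p under 0.05 in edgeR. Beside every list count at an unadjusted p under 0.05, above or below, stand 6.31% of all genes higher and 6.95% lower. Without CONT 1 these shares were 7.3% and 8.28%. Of 22 general macrophage and myeloid genes, 8 were higher and 14 lower, with 2 higher and 3 lower at an unadjusted p under 0.05 and a median log2 fold change of -0.35. Csf1r, the receptor for the main macrophage growth factor, was at 62.0, 217 and 258 CPM in CONT and 171, 96.0 and 80.0 CPM in CAC, the pattern of Adgre1 and Cd68 with a low CONT 1. Lyz2, the lysozyme of myeloid cells, was at 270, 860 and 798 CPM in CONT and 544, 385 and 613 CPM in CAC, and C1qa, a complement chain made by resident macrophages, had a log2 fold change of -1.01 (SE 0.39, edgeR adjusted p = 0.350). Without CONT 1, 2 of the list were higher and 8 lower at an unadjusted p under 0.05, at a median of -0.54 against -0.03 over all genes in that fit.

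The genes of this list with the smallest p lay on both sides. Cx3cr1, the fractalkine receptor of monocytes and some resident macrophages, was at 9.63, 14.5 and 9.67 CPM in CONT and 0.780, 1.70 and 2.27 CPM in CAC, a log2 fold change of -2.83 (SE 0.49, edgeR adjusted p = 0.215, DESeq2 adjusted p = 3.22e-06). Mertk, a receptor for the uptake of apoptotic cells, was at 31.1, 42.1 and 50.6 CPM in CONT and 133, 116 and 71.2 CPM in CAC, a log2 fold change of 1.37 (SE 0.30, edgeR adjusted p = 0.228, DESeq2 adjusted p = 0.00279). Fcer1g, the signalling chain of Fc receptors, had a log2 fold change of -0.82 (SE 0.22, edgeR adjusted p = 0.261).

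Of 20 further resident and vessel-associated macrophage genes, 5 were higher and 15 lower, with 1 higher and 5 lower at an unadjusted p under 0.05 and a median of -0.44. Cbr2, a carbonyl reductase of resident macrophages, was at 64.6, 74.5 and 77.6 CPM in CONT and 30.9, 28.7 and 13.5 CPM in CAC (log2 fold change -1.57, SE 0.33, edgeR adjusted p = 0.228). Ccl8, a chemokine of tissue macrophages, was at 8.38, 43.7 and 25.5 CPM in CONT and 4.31, 4.80 and 4.57 CPM in CAC (log2 fold change -2.50, SE 0.58, edgeR adjusted p = 0.231). Cd209g, a C-type lectin, was at 17.5, 35.5 and 36.5 CPM in CONT and 6.0, 2.10 and 0.415 CPM in CAC (log2 fold change -3.39, SE 0.90, edgeR adjusted p = 0.266). In each of these 3 genes the groups did not overlap, and CONT 1 lay on the side of the other controls. Cd209f, which stands beside Cd209g in the list and was named after its values were seen, had a log2 fold change of -3.26 (SE 0.94, edgeR adjusted p = 0.275). DESeq2 called these 4 genes lower, and called Selenop, a selenium carrier made by many cell types and also named after its values were seen, higher at 1.61 on the log2 scale (DESeq2 adjusted p = 0.0256).

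Of 20 further lipid-associated macrophage genes, 7 were higher and 13 lower, with 1 higher and 1 lower at an unadjusted p under 0.05 and a median of -0.10, near that of all genes. Without CONT 1 the list had 10 higher and 10 lower, with 2 higher and 0 lower at that p and a median of -0.01. Creg1, a glycoprotein of lysosomes, was at 57.5, 61.5 and 87.3 CPM in CONT and 87.5, 134 and 133 CPM in CAC (log2 fold change 0.78, SE 0.26, edgeR adjusted p = 0.306). Fabp5, a fatty acid binding protein, was at 149, 139 and 111 CPM in CONT and 97.4, 29.7 and 42.1 CPM in CAC (log2 fold change -1.24, SE 0.45, edgeR adjusted p = 0.334). Mmp12, the macrophage elastase, had a log2 fold change of 1.47 (SE 0.62, edgeR adjusted p = 0.379). Apoe, a lipid carrier that TREM2 binds and that adipocytes make as well, was higher in every CAC library than in every control, at a log2 fold change of 0.67 (SE 0.33, edgeR adjusted p = 0.423, DESeq2 adjusted p = 0.0263).

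Several genes of the lipid-associated list, Lpl, Fabp4 and Plin2 among them, are also adipocyte genes. Of 8 adipocyte genes in a list of their own, 5 were higher and 3 lower, none at an unadjusted p under 0.05 (1 higher without CONT 1), with a summed level of 15176 to 29188 CPM in CONT and 30029 to 32046 CPM in CAC. Cfd, a serine protease secreted by adipocytes, carried that separation, and without it the sums overlapped at 8723 to 11370 CPM in CONT and 9233 to 17531 CPM in CAC. Adipoq, the adipokine that defines adipocytes, was at 1692 to 2164 CPM in CONT and 2031 to 3372 CPM in CAC. The part of adipocytes in the list's values was not tested.

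**Figure D4:**
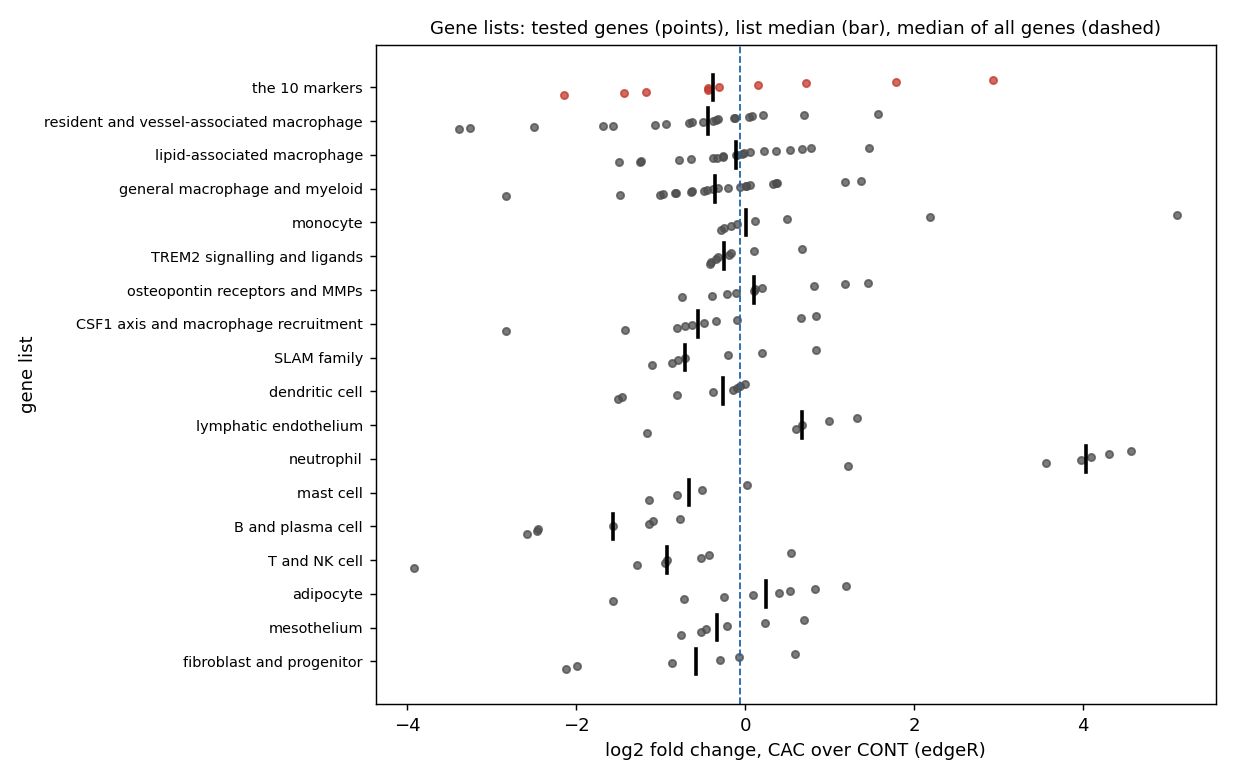
Log2 fold change of CAC over CONT from edgeR (x axis) for the tested genes of each list (y axis, a point per gene, black bars at the medians), with the 10 markers in red and the median of all genes tested, -0.06, dashed. The resident list has its median at -0.44 and a tail of genes below -2, the lipid-associated list is centred at -0.10, and the neutrophil list at 4.04.

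The partners of the individual markers were looked up by the same lists. TREM2 signals through the adapter Tyrobp, which was at 30.1, 58.3 and 49.0 CPM in CONT and 41.6, 33.1 and 47.4 CPM in CAC (log2 fold change -0.17, SE 0.28, edgeR adjusted p = 0.827). None of the 8 genes for TREM2 signalling and ligands had an unadjusted p under 0.05, and their median was -0.25 (1 higher and 1 lower at that p without CONT 1). Among 10 receptors of osteopontin and proteases that cut it, 2 were higher and 1 lower at an unadjusted p under 0.05, and 1 higher and 2 lower without CONT 1. Itgb3, the integrin beta chain of the osteopontin receptor alpha-v beta-3, was at 6.15, 8.06 and 7.37 CPM in CONT and 15.1, 13.4 and 20.7 CPM in CAC (log2 fold change 1.19, SE 0.28, edgeR adjusted p = 0.233). The protease gene Mmp3 had 1.46 on the log2 scale (SE 0.52, edgeR adjusted p = 0.330) and the integrin gene Itgb5 -0.74 (SE 0.29, edgeR adjusted p = 0.353).

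The MiT/TFE family of transcription factors, which turn on lysosomal genes and are known activators of Gpnmb, had 4 genes tested. Mitf was at 12.9, 13.4 and 19.4 CPM in CONT and 20.6, 38.5 and 52.4 CPM in CAC, higher in each CAC library than in any control (log2 fold change 1.28, SE 0.38, edgeR adjusted p = 0.277, DESeq2 adjusted p = 0.0433). Tfeb had -0.40 (SE 0.24) and Tfe3 -0.23 (SE 0.17) on the log2 scale, and the median of the family was -0.31. Mitf was the gene of this family with an unadjusted p under 0.05, and without CONT 1 there were 0.

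The relatives of Slamf9 in the SLAM family, receptors that leukocytes use to bind each other, were taken as a list. Of the 10 genes listed 7 could be tested, 2 higher and 5 lower, none at an unadjusted p under 0.05, with a median of -0.71. Slamf8, the relative that like Slamf9 has a short tail without the usual signalling motif, was at 1.78, 4.56 and 3.21 CPM in CONT and 1.52, 1.49 and 1.43 CPM in CAC (log2 fold change -1.11, SE 0.47, edgeR adjusted p = 0.382). Log2 fold changes were -0.71 for Cd48, -0.80 for Ly9, -0.87 for Slamf7, 0.20 for Cd84, 0.84 for Cd244a and -0.20 for the adapter Sh2d1b1. Slamf1, Slamf6 and the adapter Sh2d1a did not pass the filter. Without CONT 1, 5 of 8 tested were lower at an unadjusted p under 0.05, against 8.28% of all genes. The median was then -1.06, against -0.03 over all genes. The family's summed level was 20.8 to 62.1 CPM in CONT, the lowest in CONT 1, and 31.6 to 42.5 CPM in CAC.

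In the families of the other markers little separated the groups. Of the TIM family only Havcr2 was tested (log2 fold change 0.01), the 3 tested integrin chains of the beta-2 family beside Itgax had a median of 0.32, and the relatives Adgre4 and Adgre5 of Adgre1 had -0.73 and 0.11. None of these 6 genes had an unadjusted p under 0.05.

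Genes that draw or sustain macrophages were taken as a list of 12, of which 10 were tested, 2 higher and 8 lower, with a median of -0.56. Csf1, the growth factor of macrophages, was at 38.3, 77.2 and 71.1 CPM in CONT and 39.9, 38.6 and 35.3 CPM in CAC (log2 fold change -0.71, SE 0.28, edgeR adjusted p = 0.359), with CONT 1 level with the CAC libraries. Csf2rb, the shared beta chain of the receptors for GM-CSF and related cytokines, was higher in each CAC library, with a log2 fold change of 0.84 (SE 0.22, edgeR adjusted p = 0.261, DESeq2 adjusted p = 0.00868). With Cx3cr1, these made 1 higher and 2 lower at an unadjusted p under 0.05, and 1 higher and 3 lower without CONT 1.

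Of 8 monocyte genes, 4 were higher and 4 lower, 2 of them higher at an unadjusted p under 0.05. Chil3 was at 0, 3.15 and 2.40 CPM in CONT and 8.62, 28 and 166 CPM in CAC. This gene is also made by neutrophils. Ly6c2, which defines inflammatory monocytes, was at 3.21, 11.5 and 4.38 CPM in CONT and 6.04, 5.77 and 15.2 CPM in CAC, with overlapping groups.

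Other cells of the fat pad were checked by lists of their own. All 7 B and plasma cell genes were lower in CAC, 3 at an unadjusted p under 0.05 (2 without CONT 1), with summed levels of 53.8 to 93.4 CPM in CONT and 9.02 to 20.4 CPM in CAC, and Ms4a1, which defines B cells, was at 2.37 to 2.41 CPM and 0.642 to 1.90 CPM. Of 7 T and NK cell genes, 6 were lower and 1 higher, 1 of them lower at an unadjusted p under 0.05 (2 lower without CONT 1), with summed levels of 11.1 to 77.0 CPM in CONT and 8.04 to 9.12 CPM in CAC, and Cd3e was at 0.803 to 1.05 CPM and 1.09 to 1.90 CPM. The gene past that p was Klrb1c, whose groups overlapped and which stood at 68.3 CPM in CONT 3 against 0.713 and 2.28 CPM in the other controls, and without it the sums were 8.72 to 15.2 CPM in CONT and 6.0 to 7.55 CPM in CAC. Genes of the epididymis reached 260 CPM in CONT 1 and 6994 CPM in CONT 3 in sum, against 2.63 CPM in CONT 2 and at most 2.38 CPM in CAC. Gpx5, a secreted protein of the epididymis, was at 0 in CONT 2, CAC 1 and CAC 2 and at 5354 CPM in CONT 3. The part of these cells in the values of the 10 markers was not tested.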

How the data were processed

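The authors cleaned the reads, aligned them to the mouse genome of Ensembl release 94 (GRCm38) with HISAT2 2.0.5, and deposited read counts per gene, not normalized, from featureCounts 1.5.0-p3 (versions per the submitters' processing notes). The strand setting of the counting is not given in the sources used here. FPKM, also deposited by the authors, divides the same counts by gene length and a library total, which was smallest in CONT 1. Coordinates of the 10 genes are the deposited ones and equal those of GENCODE M21.

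Groups were taken from the sample labels, and age, strain and time after injection from the study's methods. Counts were tested in R 4.3.3 with edgeR 4.0.16 (TMM normalization, filter on low counts by group, robust quasi-likelihood test, condition as the only term, Benjamini-Hochberg adjustment over all genes tested). DESeq2 1.42.0 and limma 3.58.1 were run as alternatives, limma on log2 FPKM with a pseudocount of 1 or 0.1 (genes that reached 0.5 FPKM in 3 or more libraries), a scale that understates changes of low genes. The tests were tried on simulated counts. The markers and gene lists were chosen with earlier results of these data known. Beside the 10 markers, the text names for each list the defining markers and at most 3 genes with the smallest p, the other SLAM genes, and a few more where it says so. Genes overlapping a marker were looked up in the annotation. Ccl21a stood on more than 1 line of the table and was left out of the lymphatic list. Interval and floor values were not needed, and depth is given as reads per CPM. Fold change columns of the study were not used. A result on 1 gene of the lists is not reported here.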

Additional observations from a re-analysis of the deposited data

How the results depend on the processing

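None of the 10 markers had an adjusted p under 0.05 in edgeR, under any normalization, filter or left-out library, or in limma on FPKM. DESeq2 and voom with sample quality weights each called 2, Slamf9 and Gpnmb. Over all genes, DESeq2 called 553 higher and 412 lower and voom 956 in all, where edgeR called 0 (2294 at an unadjusted p under 0.05), limma on log2(FPKM + 1) called 7 and on log2(FPKM + 0.1) 8, and the cause was not tested. At an unadjusted p under 0.05 edgeR counted 2 markers (13.3% of all genes), DESeq2 4 (9.73%), voom 7 (28.4%), and the fits that leave out 1 library 2 to 4 (7.24% to 15.6%). The groups did not overlap in 3 markers (22.5% of all genes in either direction), and in 2 to 5 with 1 library left out (26.6% to 37.7%, the highest without CONT 1, where 5 markers did not overlap). With 1 library left out DESeq2 called 2 or 3 (3.25% to 11% of all genes, against 5.62% with all 6). Of 170 marker values under alternatives, 165 kept direction and side of the threshold, 4 (Slamf9 and Gpnmb in DESeq2 and voom) passed it, and 1 reversed, Itgax at 0.16 without CONT 2, in a range of -0.73 to 0.16 over the left-out libraries. Spp1 ranged from 0.93 without CAC 3 to 3.77 without CONT 2. The labels do not say whether replicate numbers pair the mice. Deviations of libraries with the same number correlated at 0.27, -0.23 and -0.26, and not every library correlated best with its own number. With 3 libraries per group these correlations cannot settle pairing. With a replicate block edgeR counted 0 markers at an adjusted and 2 at an unadjusted p under 0.05, and DESeq2 2. The lists and background shares without CONT 1 and the T and NK cell sum without Klrb1c and the adipocyte sum without Cfd were added after seeing the data. Depth limits Timd4 in CAC 3 (23 reads), Itgax in CONT 1 (26 reads) and Spp1 in CONT 1 (11 reads).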

Other observations

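Genes of fibroblasts, mesothelium and mast cells, other cells of the fat pad, had not been described yet. Of 6 fibroblast and progenitor genes, 1 was higher and 5 lower, 3 of them lower at an unadjusted p under 0.05 and called by DESeq2 (3 lower and 1 higher at that p without CONT 1). Col3a1, a fibrillar collagen, was at 539, 982 and 941 CPM in CONT and 317, 173 and 127 CPM in CAC (log2 fold change -2.0, SE 0.44, edgeR adjusted p = 0.228), Col1a1 had -2.13 (SE 0.70, edgeR adjusted p = 0.305), and Pi16, a marker of adipose progenitors, had -0.86 (SE 0.22, edgeR adjusted p = 0.250). Of 6 mesothelium genes, 2 were higher and 4 lower, and Lrrn4, at a log2 fold change of 0.70 (SE 0.27, edgeR adjusted p = 0.347), had an unadjusted p under 0.05. Without CONT 1 the list had 4 higher and 2 lower, none at that p. Msln, which defines mesothelium, was at 8.86 to 24.9 CPM in CONT and 5.44 to 13.3 CPM in CAC. Of 4 mast cell genes tested, 1 was higher and 3 lower, none at an unadjusted p under 0.05.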
